A study of Mus musculus with 2 samples.

Results

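The 53 genes described here encode collagens, laminins and other proteins of the extracellular matrix. They were chosen by name from the gene list that both count matrices share. Chosen symbols were those of single collagen and laminin chains, together with *Eln*, *Fn1*, *Fbn1*, *Nid1*, *Nid2*, *Hspg2*, *Dcn*, *Lum*, *Bgn*, *Mgp*, *Sparc*, *Fbln1*, *Fbln5* and *Mfap4*. Of 31053 listed genes, 69 matched, and 16 of these were left out because fewer than 10 unique molecular identifiers (UMIs, one for each captured transcript) were counted over all cells. Of the 53 genes, 22 belong to the basement membrane and 25 to the interstitial matrix. The other 6 are *Mgp*, *Sparc*, *Col13a1*, *Col23a1*, *Col17a1* and *Col7a1*.

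The basement membrane is a thin sheet under endothelial and epithelial cells and around pericytes. Type IV collagen chains, which assemble in threes, and laminin trimers of one alpha, one beta and one gamma chain form its networks, and nidogen and perlecan are bound to them. The interstitial matrix between cells holds fibrillar collagens, elastic fibres built from elastin on fibrillin scaffolds, fibronectin and small leucine-rich proteoglycans such as decorin and biglycan. In the alveolar wall the capillary and the alveolar epithelium share a fused basement membrane, and in pulmonary hypertension the walls of small vessels thicken and gain matrix.

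The data are single-cell RNA sequencing of lungs from C57/B6 mice 2 to 4 months old, with 1 library kept in normoxia and 1 from mice kept in hypoxia, which the study's methods give as male mice in 10% oxygen for up to 3 weeks. The labels name no allele, and no agent other than oxygen. The study's text speaks of 3 wild-type animals in hypoxia, and how animals were divided over or pooled in libraries is not given in the sources used here. Dissociated cells had passed over CD45 and CD326 (Epcam) beads, which remove leukocytes and epithelial cells, a step that can set the shares of those classes.

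The normoxia library held 2223 cells and the hypoxia library 809, and 1348 and 689 of them were kept by limits of 200 to 4000 genes with a UMI and no more than 5% mitochondrial UMIs. That last limit was exceeded by 37.6% of cells in normoxia and 13.2% in hypoxia. Kept cells had a median depth of 3453 and 2224 UMIs. The 53 genes took 0.827% of normoxia UMIs and 0.685% of hypoxia UMIs in kept cells, and 1 cell barcode occurred in both libraries. Cells were clustered without the 53 genes, and clusters were named from marker lists that held none of them. Each condition has a single library and hence no replicate, and values are given without a test. Intervals are exact 95% intervals that cover counting error only, and condition, library and depletion cannot be told apart.

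Endothelial (EC)-like cells made up 857 of the normoxia cells and 598 of the hypoxia cells, in 16 clusters that each had between 9 and 12 of 12 EC markers in at least 25% of cells. Fibroblast-like cells numbered 185 and 34 in 3 clusters. Alveolar type 1 (AT1)-like cells numbered 43 and 12, pericyte-like cells 22 and 1, and myofibroblast-like cells, led by *Hhip*, *Aspn* and *Acta2*, 16 and 0. Another 24 and 3 cells lay in an unnamed cluster that carried pericyte and EC transcripts. Leukocyte-like cells, which served as a class expected to lack matrix transcripts, numbered 19 and 3. In a mixture of all kept cells, fewer cells of a class and less RNA per cell cannot be told apart, so levels are given below as UMIs of a gene per 1000000 UMIs of the class (CPM). The kit counts the 3′ end of each molecule once, so these levels were not divided by transcript length.

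EC-like cells held most basement membrane transcripts and fibroblast-like cells most interstitial ones. Of basement membrane UMIs, EC-like cells held 62.3% in normoxia and 95.7% in hypoxia, fibroblast-like cells 20.4% and 2.31%, and pericyte-like cells 7.68% and 0.173%. Of interstitial matrix UMIs, fibroblast-like cells held 75.6% and 72.4%, EC-like cells 9.99% and 25.4%, and the myofibroblast-like cells 9.61% in normoxia. These shares move with the cells recovered, since fibroblast-like cells were 13.7% of kept normoxia cells and 4.93% of kept hypoxia cells.

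**Figure D1:**
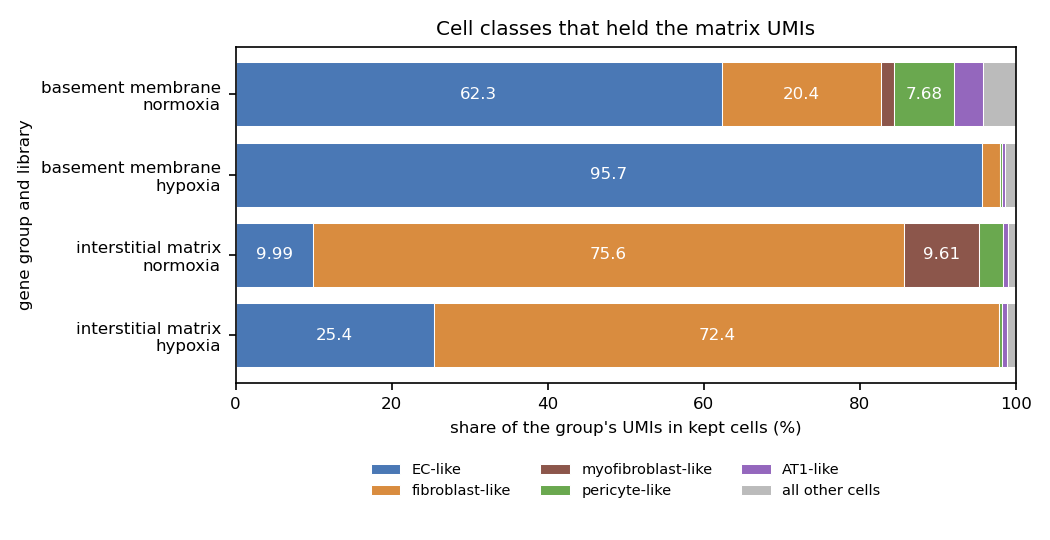
Share of the UMIs of basement membrane genes (upper pair of bars) and interstitial matrix genes (lower pair) held by each cell class, in percent of the group's UMIs in kept cells of each library. EC-like cells hold 62.3% and 95.7% of the basement membrane bars and fibroblast-like cells 75.6% and 72.4% of the interstitial bars.

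By level the order was different. In normoxia, basement membrane transcripts summed to 5415 CPM in pericyte-like cells (95% interval 5007 to 5847), 2904 in AT1-like cells, 2114 in fibroblast-like cells and 1475 in EC-like cells, against 178 in leukocyte-like cells. The pericyte-like level was 3.67 times the EC-like level (3.38 to 3.98). Of the 319 basement membrane UMIs in AT1-like cells of normoxia, 25.4% lay in 1 cell, and 65.1% of the cells had one. Over both libraries EC markers summed to 4700 CPM in the AT1-like cluster, and their part in the AT1-like levels was not tested. Interstitial transcripts summed to 13603 in myofibroblast-like and 12884 in fibroblast-like cells, a ratio of 1.06 (0.997 to 1.12), then 3530 in pericyte-like cells and 389 in EC-like cells. In leukocyte-like cells 1 interstitial UMI was counted, 7.11 CPM. Of the 47 genes with at least 20 UMIs in normoxia, the highest level was in pericyte-like cells for 8 basement membrane genes and in AT1-like cells for 6. Fibroblast-like cells were highest for 11 interstitial genes and myofibroblast-like cells for 8. The lead over the next class was beyond counting error for 4 of the 8 pericyte-like, 5 of the 6 AT1-like, 7 of the 11 fibroblast-like and 6 of the 8 myofibroblast-like leads.

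**Figure D2:**
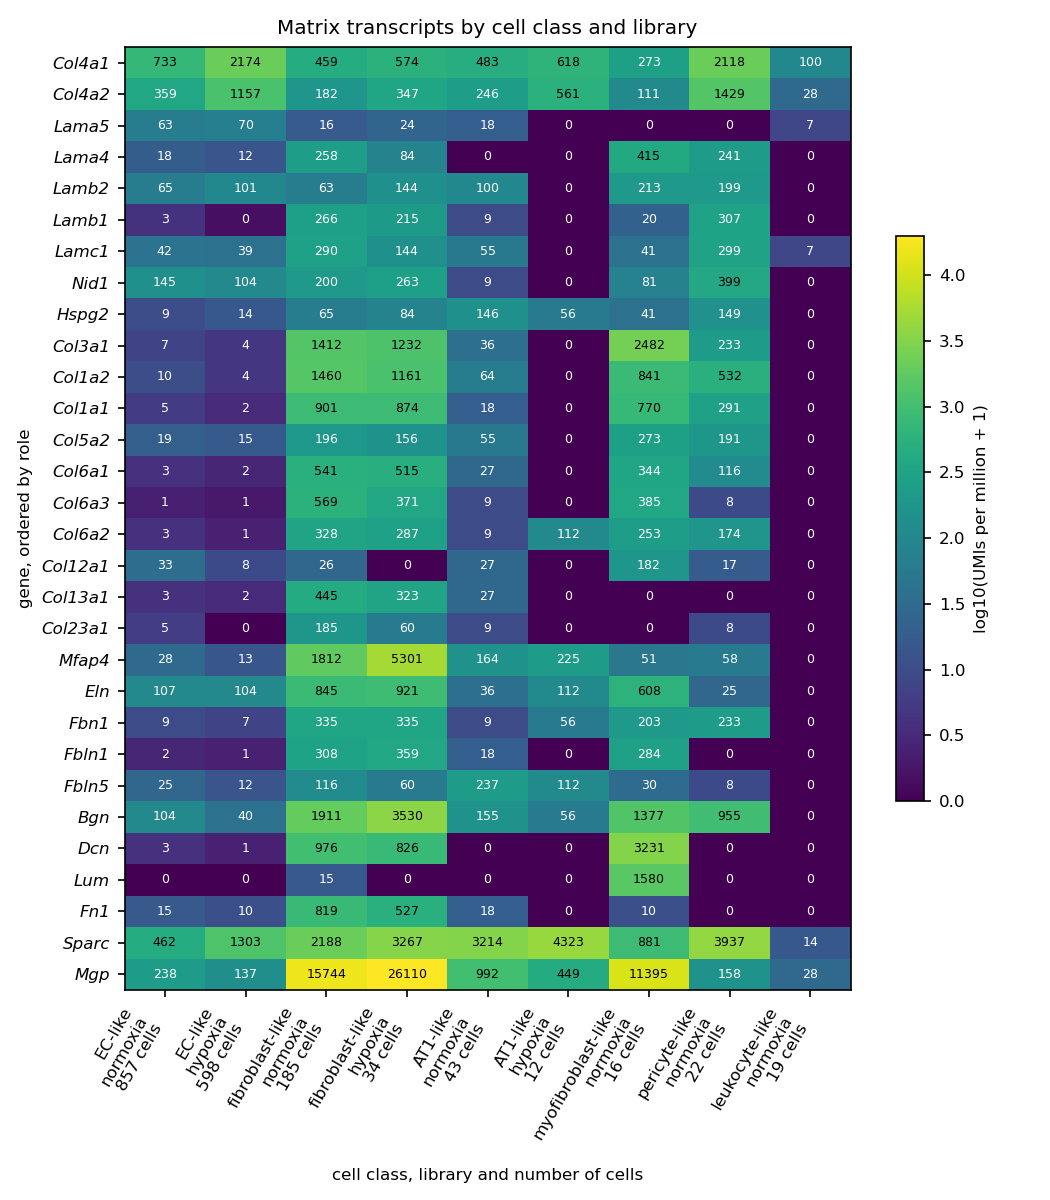
CPM of the 30 genes with the most UMIs, in the cell classes and libraries drawn, with the number of cells. Colour is log10(CPM + 1) and each number is the level. Among the columns drawn, *Col4a1* and *Col4a2* are highest in pericyte-like cells for normoxia and EC-like cells for hypoxia. The fibrillar collagens are highest in fibroblast-like and myofibroblast-like cells. The 1 pericyte-like cell of hypoxia is not drawn. It held 5 UMIs of *Col4a1* and 8 of *Col4a2*, at 1255 and 2008 CPM.

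*Col4a1* and *Col4a2* encode the chains of the collagen IV network found in nearly all basement membranes, and held 21.2% of all UMIs of the 53 genes. *Col4a1* stood at 2118 CPM in pericyte-like cells, 733 in EC-like cells, 483 in AT1-like cells and 459 in fibroblast-like cells of normoxia, and the last pair did not differ beyond counting error (ratio 1.05, 0.772 to 1.40). *Col4a2* followed at 1429, 359, 246 and 182 in the same order. The unnamed cluster with pericyte and EC transcripts was second to pericyte-like cells in normoxia for both genes, at 1019 and 589 CPM. In EC-like cells 79.5% of normoxia cells had a *Col4a1* UMI, against 10.5% of leukocyte-like cells, at median depths of 3891 and 4685 UMIs. The ratio of *Col4a1* to *Col4a2* UMIs was 2.04 in EC-like cells of normoxia (1.91 to 2.19) and 1.88 in hypoxia (1.79 to 1.98). It was lower in pericyte-like cells, at 1.48 (1.22 to 1.81), and 2.53 in fibroblast-like cells (2.09 to 3.08).

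The genes lie head to head on chromosome 8 of GRCm38, *Col4a1* (ENSMUSG00000031502) at chr8:11198423-11312826 on the minus strand and *Col4a2* (ENSMUSG00000031503) at chr8:11312805-11449287 on the plus strand. Their start sites are 21 bases apart, and the genes overlap. The RefSeq promoter windows, 250 bases before to 50 after each start (GRCm38.p6), are shown because both genes stood higher in hypoxia by similar factors. *Col4a1* covers chr8:11312777-11313076 and *Col4a2* chr8:11312555-11312854, each 5′ to 3′ on its own strand, and capitals mark the 78 bases that both windows hold, which read as reverse complements.
Col4a1: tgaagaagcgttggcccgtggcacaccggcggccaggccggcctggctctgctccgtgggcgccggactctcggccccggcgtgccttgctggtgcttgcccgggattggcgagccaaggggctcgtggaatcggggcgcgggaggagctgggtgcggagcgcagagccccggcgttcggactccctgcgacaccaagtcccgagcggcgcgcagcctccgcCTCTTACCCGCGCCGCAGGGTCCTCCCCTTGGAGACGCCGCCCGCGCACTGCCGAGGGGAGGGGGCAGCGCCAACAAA
Col4a2: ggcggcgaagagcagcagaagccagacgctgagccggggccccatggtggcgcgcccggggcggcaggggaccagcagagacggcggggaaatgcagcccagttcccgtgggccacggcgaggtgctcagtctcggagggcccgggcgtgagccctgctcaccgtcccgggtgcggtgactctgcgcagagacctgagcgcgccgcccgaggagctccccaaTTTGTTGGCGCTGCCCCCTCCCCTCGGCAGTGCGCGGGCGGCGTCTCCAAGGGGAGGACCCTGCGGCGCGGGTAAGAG
The letters GGGCGG, or CCGCCC on the other strand, occurred in the windows of 24 of 35 matched genes (68.6%), against 35.7% of all 32851 windows. The 35 genes have 40 windows. Their shares count genes with the letters in any window, and those of all windows count windows, so the units differ. The core of hypoxia response elements has an A or a G before the letters CGTG. The form ACGTG, or CACGT on the other strand, occurred in 4 of 35 (11.4%), against 19.6% of all windows, and in neither of the windows shown. The form GCGTG, or CACGC on the other strand, occurred in 12 of 35 (34.3%), against 32.4% of all windows, and 1 time in each of the windows shown. These matches describe letters only.

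*Col4a3*, *Col4a4* and *Col4a5* form the specialised collagen IV of alveolar and glomerular basement membranes. *Col4a3* stood at 628 CPM in AT1-like cells and 2.51 in EC-like cells of normoxia (ratio 250, 125 to 571). *Col4a4* stood at 555 and 2.79 (ratio 199, 101 to 436). *Col4a5* was shared with the mesenchyme, at 146 CPM in AT1-like cells, 91.2 in myofibroblast-like cells and 82.9 in fibroblast-like cells, which held 68 of its 97 UMIs. In hypoxia the 12 AT1-like cells held 6 UMIs of *Col4a3* and 1 of *Col4a4*, too few to compare. *Col4a3* and *Col4a4* are also neighbours, 71 bases apart in opposite directions, and *Col4a5* and *Col4a6* lie 1308 bases apart in the same arrangement. Of 7 neighbouring pairs within 250000 bases, 6 had the same leading class for both genes in normoxia, the 3 head-to-head pairs among them. The leads of *Col4a5*, *Col4a6*, *Col5a2* and *Col6a2* in those pairs lay within counting error, and *Col4a6* had 10 UMIs in normoxia. The same share over pairs of genes that are not neighbours was not counted.

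Laminin chains split by cell class. *Lama3* and *Lamb3*, laminin chains of epithelia, stood at 164 and 137 CPM in AT1-like cells. EC-like cells of normoxia held 6 and 0 UMIs of them in 3586834. In EC-like cells *Lama5* outnumbered the alpha chain *Lama4* and *Lamb2* the beta chain *Lamb1*, and in fibroblast-like cells the order was the opposite. *Lama5* UMIs were 3.52 times those of *Lama4* in EC-like cells (2.65 to 4.72) and 0.0613 times in fibroblast-like cells. *Lamb2* UMIs were 19.5 times those of *Lamb1* in EC-like cells (10.95 to 38.3) and 0.239 times in fibroblast-like cells. Pericyte-like cells held no *Lama5* UMI in 120403, which allows up to 24.9 CPM by a count of 3, and 307 CPM of *Lamb1*. The common gamma chain *Lamc1* stood at 299 CPM in pericyte-like cells, 290 in fibroblast-like cells and 42.1 in EC-like cells. *Nid1*, nidogen, stood at 399, 200 and 145.

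Type I and III collagen transcripts, the chains of the main fibrils, were far higher in fibroblast-like than EC-like cells. In normoxia *Col1a2* stood at 1460 and 9.76 CPM (ratio 150, 107 to 216) and *Col3a1* at 1412 and 6.69 (ratio 211, 141 to 331), while *Col5a2*, a minor fibril chain, stood at 196 and 19.2 (ratio 10.2, 7.65 to 13.7). Myofibroblast-like and fibroblast-like cells did not differ in the interstitial sum beyond counting error and carried different genes, and the basement membrane sum was 0.666 times as high in the former (0.556 to 0.792). *Lum* (lumican) stood at 1580 CPM in the 16 myofibroblast-like cells and 14.6 in fibroblast-like cells (ratio 108, 60.1 to 214), and 93.8% of the former had a UMI. *Col3a1* stood at 2482 and 1412. *Dcn* (decorin) stood at 3231 and 976, but 728 of the 801 fibroblast-like UMIs lay in 15 cells of 1 cluster, described below. In the other direction *Mfap4*, a microfibril protein of elastic fibres, stood at 50.6 and 1812 and *Fn1* (fibronectin) at 10.1 and 819. *Col13a1*, a membrane-bound collagen, had no UMI in myofibroblast-like cells and 445 CPM in fibroblast-like cells. *Col8a1*, a network-forming collagen of vessel walls, was a pericyte-like transcript, at 415 CPM against 0.558 in EC-like cells.

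*Sparc*, a collagen-binding secreted protein also known as osteonectin, was carried by all matrix-bearing classes. It stood at 3937 CPM in pericyte-like, 3214 in AT1-like, 2188 in fibroblast-like and 462 in EC-like cells of normoxia, each higher than the next beyond counting error, and at 14.2 in leukocyte-like cells. *Mgp*, matrix Gla protein, an inhibitor of calcification, held 30.1% of all UMIs of the 53 genes. It stood at 15744 CPM in fibroblast-like, 11395 in myofibroblast-like, 992 in AT1-like and 238 in EC-like cells of normoxia. Few cells carried the last 2 levels. Of AT1-like cells 37.2% had an *Mgp* UMI, and 1 cell held 46.8% of them. The upper quartile of *Mgp* UMIs per EC-like cell was 0.

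Within EC-like cells, subtypes carried different matrix genes. Clusters named general capillary-like held 612 and 305 cells, aerocyte-like clusters 129 and 63, an arterial-like cluster 20 and 11, a venous-like cluster 65 and 22 and a lymphatic-like cluster 11 and 5. The general capillary-like clusters had 6 or 7 general capillary markers detected. The arterial-like cluster also had 6, and the venous-like and lymphatic-like clusters 5. In some general capillary-like clusters the arterial or aerocyte list scored best, with at most 2 markers past 2-fold. The cluster led by *Ntrk2* and *Mal* gave 177 of the 305 hypoxia cells. EC-like cells of no named subtype numbered 20 and 192. Aerocytes are the large capillary cells of gas exchange. In normoxia they stood at 142 CPM for *Col12a1*, a fibril-associated collagen, against 7.25 in general capillary-like cells (ratio 19.6, 11.7 to 35.0). *Nid1* was 2.62 times higher (2.17 to 3.15) and *Lamc1* 2.68 times higher. *Lama5* stood at 5.63 and 80.6 (ratio 0.0698, 0.0188 to 0.182) and *Sparc* at 139 and 601. In hypoxia *Lama5* stood at 20.6 and 88.4 (ratio 0.233, 0.0915 to 0.494). Aerocyte-like cells held 4 *Lama5* UMIs in normoxia and 7 in hypoxia, and the intervals of the ratios overlap. The *Nid1* ratio of aerocyte-like to general capillary-like cells in hypoxia was 1.26 (0.872 to 1.79), within counting error, and that of *Lamc1* was 3.95 (2.38 to 6.56).

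Elastic fibre genes varied among vessel types. *Eln* stood at 437 CPM in venous-like cells, where 64.6% of cells had a UMI, and 71.7 in general capillary-like cells (ratio 6.097, 4.86 to 7.65), and in hypoxia at 603 and 94.4. *Bgn* was 8.42 times higher in venous-like cells in normoxia (6.71 to 10.6) and 38.9 times in hypoxia, and *Fbln5*, which binds elastin, 22.6 times in normoxia (12.2 to 44.5). *Fbln5* was 23.6 times higher in arterial-like cells of normoxia (10.8 to 52.1), on 16 UMIs in 4 of 20 cells, with 43.8% of them in 1 cell. In lymphatic-like cells it was 56.0 times higher (24.8 to 127), at 335 CPM in 7 of 11 cells. In the arterial-like cluster *Eln* stood at 449 CPM in normoxia, with 62.7% of its UMIs in 1 cell, and in hypoxia at 111 against 94.4 in general capillary-like cells (ratio 1.18, 0.377 to 2.83). *Mgp* stood at 2824 in arterial-like cells of normoxia, in 6 of 20 cells, and 178 in general capillary-like cells. *Mfap4* had 1 UMI in arterial-like and 0 in venous-like cells of normoxia. *Lama4* in the 11 lymphatic-like cells stood at 478 CPM and 10.2 in general capillary-like cells (ratio 46.7, 24.5 to 88.2). Those lymphatic-like cells held 20 UMIs of *Lama4* and none of *Lama5*, the reverse of the order over all EC-like cells. Arterial-like cells of normoxia held 8 and 9.

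**Figure D3:**
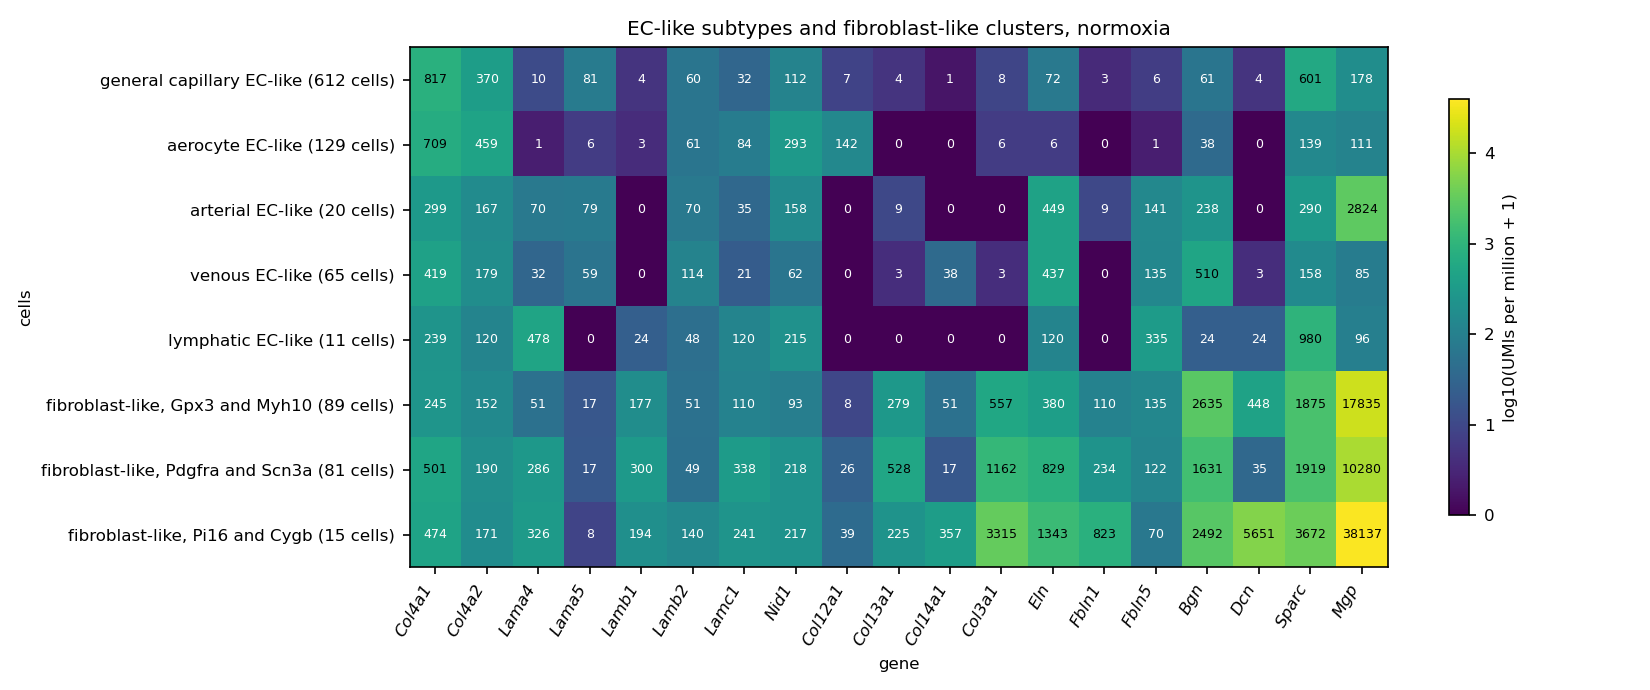
CPM of 19 genes in EC-like subtypes and the 3 fibroblast-like clusters of the normoxia library; colour is log10(CPM + 1) and each number is the level. *Col12a1* is highest in aerocyte-like cells at 142, *Eln* is 437 and 449 in venous-like and arterial-like cells, and *Dcn* is 5651 in the *Pi16*-led fibroblast-like cluster.

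The 3 fibroblast-like clusters also differed. One of 15 normoxia cells was led by *Pi16* and *Cygb*, genes of adventitial fibroblasts, one of 81 by *Pdgfra* and *Scn3a*, and one of 89 by *Gpx3* and *Myh10*. Interstitial transcripts were 2.08 times higher in the *Pi16*-led than the *Pdgfra*-led cells (1.99 to 2.17). *Dcn* stood at 5651 and 34.9 CPM (ratio 162, 104 to 267), with UMIs in 13 of 15 and 13 of 81 cells. *Col14a1*, a fibril-associated collagen, stood at 357 and 17.4 (ratio 20.5, 10.2 to 45.5). *Col13a1* stood at 225 and 528 (ratio 0.426, 0.280 to 0.624). The *Gpx3*-led cells carried less *Col1a1* than the *Pdgfra*-led cells, at 194 and 902 CPM (ratio 0.215, 0.135 to 0.327), and more *Mgp*, at 17835 and 10280. Over both libraries the *Gpx3*-led cluster was shallower, with a median of 1093.5 against 7055 UMIs per cell. It also held more EC marker UMIs, at 2610 against 319 CPM, and their part in these differences was not tested.

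In EC-like cells, the 3 genes that stood more than 2-fold higher in the hypoxia library were *Col4a1*, *Col4a2* and *Sparc*. Their normoxia and hypoxia levels were 733 and 2174 CPM for *Col4a1* (ratio 2.97, 2.83 to 3.11). *Col4a2* stood at 359 and 1157, with a ratio of 3.22 (3.01 to 3.45), and *Sparc* at 462 and 1303, with a ratio of 2.82 (2.65 to 3.001). Of 18 of the 53 genes with at least 50 EC-like UMIs over both libraries, 3 were at least 2-fold higher and 5 at least 2-fold lower. Over all 8742 genes with that many UMIs, 1.99% were at least 2-fold higher and 3.72% lower. By the stricter rule that the whole interval lie above 1.5 or below 1/1.5, the same 3 genes were higher and 4 lower (*Mgp*, *Bgn*, *Col12a1* and *Col18a1*), against 2.14% and 3.31% of all genes. The median ratio was 0.757 over the 18 genes and 1.02 over all 8742. The basement membrane sum was 2.51 times higher (2.43 to 2.602), at 1475 and 3704 CPM, and the interstitial sum 0.606 times (0.546 to 0.672), at 389 and 236. The interstitial ratio was 0.562 in general capillary-like, 0.513 in aerocyte-like and 0.404 in arterial-like cells. It was 1.06 (0.860 to 1.30) in venous-like and 1.08 (0.323 to 2.87) in lymphatic-like cells. In EC-like cells of no named subtype it was 1.46 (0.739 to 3.30). *Col4a1* and *Col4a2* made up most of the basement membrane sum in both libraries. Of the 9 basement membrane genes with at least 50 UMIs, only these 2 were at least 2-fold higher and 1 was lower. The median ratio of the 9 was 1.12.

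The difference was spread over cells. Each EC-like cell held a median of 5.94 *Col4a1* UMIs per 10000 in normoxia and 15.9 in hypoxia, and 2.72 and 11.5 of *Sparc*. After each cell was thinned to 1000 UMIs, which left out 49 normoxia and 121 hypoxia cells, 47.3% and 79.0% had a *Col4a1* UMI, against 79.5% and 83.9% before thinning. Different clusters hold most EC-like cells of the 2 libraries. A cluster led by *Ntrk2* and *Mal* had 3 normoxia and 177 hypoxia cells, and 2 others had 7 and 106, and 11 and 82, while the cluster led by *Ier3* and *Socs3* had 129 and 19. In the 8 clusters to which both libraries gave 10 cells or more, *Col4a1* stood higher in hypoxia in 8 of 8, by 1.46 to 5.06 times, with a pooled ratio of 2.27 (2.09 to 2.47). The interval included 1 in 1 of them. *Col4a2* and *Sparc* also stood higher in 8 of 8, with pooled ratios of 2.31 and 2.71. Pooled so, the ratio of the basement membrane sum, which includes *Col4a1* and *Col4a2*, was 1.91 (1.80 to 2.03).

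*Col4a1* ratios varied with the EC-like subtype. It stood at 817 and 2707 CPM in general capillary-like cells (ratio 3.32, 3.14 to 3.51), 709 and 1070 in aerocyte-like cells (1.51, 1.31 to 1.73) and 419 and 614 in venous-like cells (1.46, 1.06 to 2.00). In the 20 and 11 arterial-like cells it stood at 299 and 1515 (5.06, 3.31 to 7.88). The difference between subtypes was not tested, and the 2 aerocyte-like clusters had ratios of 1.46 (1.27 to 1.68) and 3.39 (1.71 to 7.09). In EC-like cells of no named subtype *Col4a1* stood at 700 and 1559 CPM (2.23, 1.49 to 3.48). *Sparc* had ratios of 2.63 in general capillary-like, 2.58 in venous-like and 3.91 in arterial-like cells. Outside EC-like cells *Col4a1* had a ratio of 1.25 over all fibroblast-like cells (0.906 to 1.69), 2.08 in their *Gpx3*-led cluster (1.21 to 3.58), 3.41 in an unnamed shallow cluster with EC markers and 1.28 in AT1-like cells (0.603 to 2.48). EC markers moved with the fibroblast-like values. The 12 EC markers summed to 562 CPM in normoxia and 2633 in hypoxia over all fibroblast-like cells, with 12 of 12 higher, and to 2153 and 3500 in the *Gpx3*-led cluster, with 11 of 12 higher and none at 0. In EC-like cells they summed to 16485 and 15419. Their part in the fibroblast-like ratios was not tested.

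**Figure D4:**
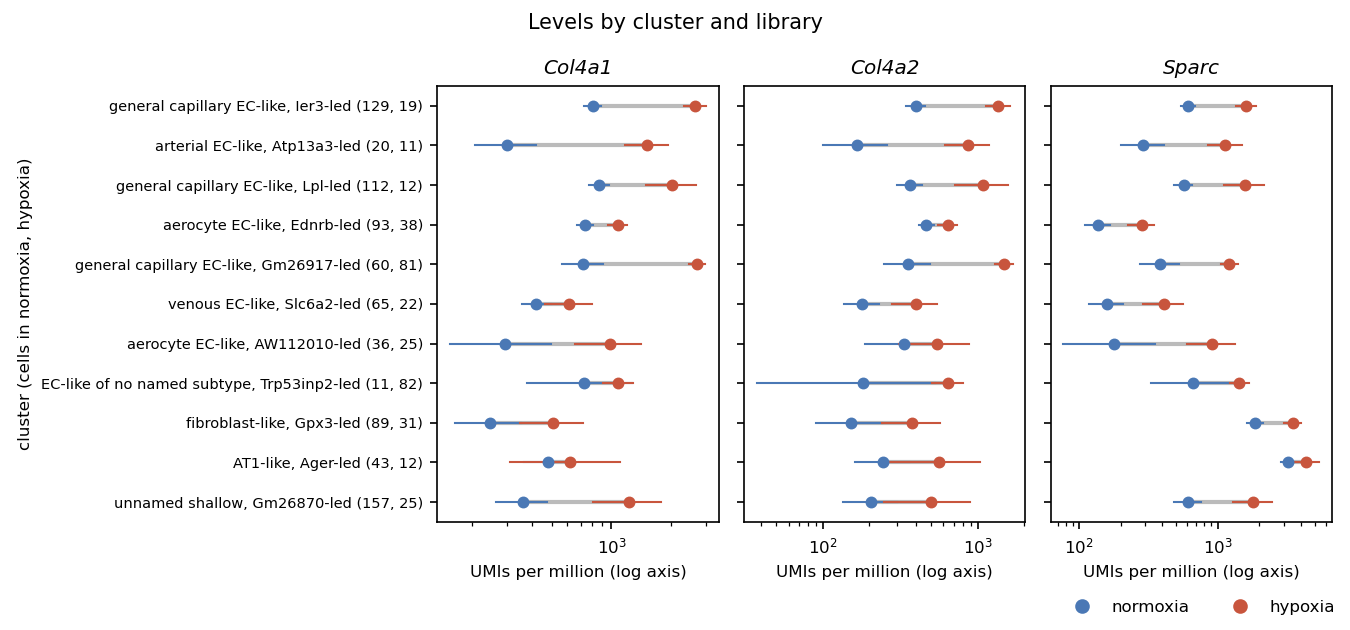
CPM (log axis) of *Col4a1*, *Col4a2* and *Sparc* in each cluster with at least 10 cells of both libraries; points are the normoxia and hypoxia levels, coloured lines their exact 95% counting intervals, and cell numbers stand in parentheses. The hypoxia point lies to the right of the normoxia point for all 3 genes in each of the 8 EC-like clusters.

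Over all EC-like cells, the other basement membrane genes with at least 50 UMIs had ratios from 0.175 to 1.56. With fewer UMIs, *Lama1* had a ratio of 3.24 (1.37 to 8.26), on 9 and 17 UMIs. *Lamb2* stood at 65.2 and 101 CPM (1.54, 1.27 to 1.86) and *Lama5* at 62.7 and 70.4 (1.12, 0.905 to 1.39). *Lamc1* stood at 42.1 and 38.8 (0.921, 0.694 to 1.21) and *Nid1* at 145 and 104 (0.720, 0.612 to 0.845). By subtype the *Nid1* ratio was 0.432 (0.303 to 0.602) in aerocyte-like and 0.898 (0.724 to 1.11) in general capillary-like cells. It was 0.844 (0.274 to 2.22) in arterial-like and 2.80 (1.36 to 5.63) in venous-like cells. *Col18a1*, whose cleavage releases endostatin, stood at 13.7 and 2.39 (0.175, 0.0545 to 0.437), on 5 hypoxia UMIs. *Eln* stood at 107 and 104 (0.980, 0.826 to 1.16). Within subtypes some were higher, on few UMIs. *Hspg2*, perlecan, had a ratio of 3.17 (1.45 to 7.32) and *Col15a1* of 2.69 (1.19 to 6.36) in general capillary-like cells, on 11 normoxia UMIs each. *Lamb2* had a ratio of 5.70 (2.36 to 15.1) in arterial-like cells, on 8 and 18 UMIs.

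Among interstitial genes lower in hypoxia in EC-like cells, *Col12a1* stood at 32.9 and 8.14 CPM (0.247, 0.139 to 0.413). Within aerocyte-like cells, its main EC-like source, it stood at 142 and 44.1, with a UMI in 37.2% and 19.0% of cells, and none of the 8 shared clusters had it higher in hypoxia. *Bgn* stood at 104 and 40.2 (0.387, 0.301 to 0.491), but at 510 and 463 in venous-like cells (0.907, 0.634 to 1.27), and its pooled ratio within clusters was 0.776 (0.584 to 1.03). *Mfap4* and *Fbln5* stood at 28.2 and 13.4, and 25.4 and 12.4. Of 18 fibroblast markers, 11 were lower and 4 higher in hypoxia EC-like cells, with 4 and 5 at 0, and they summed to 1642 and 2211 CPM. Their part in these values was not tested. *Mgp* stood at 238 and 137 (0.576, 0.502 to 0.659), with 38.1% of the hypoxia UMIs in 1 cell. EC-like cells of no named subtype, that cell among them, held 130 of the 286 hypoxia UMIs, with levels of 56.0 and 504 CPM. Without the cell with the most *Mgp* UMIs in each library its ratio was 0.409, and as a mean over cells it was 1.28.

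**Figure D5:**
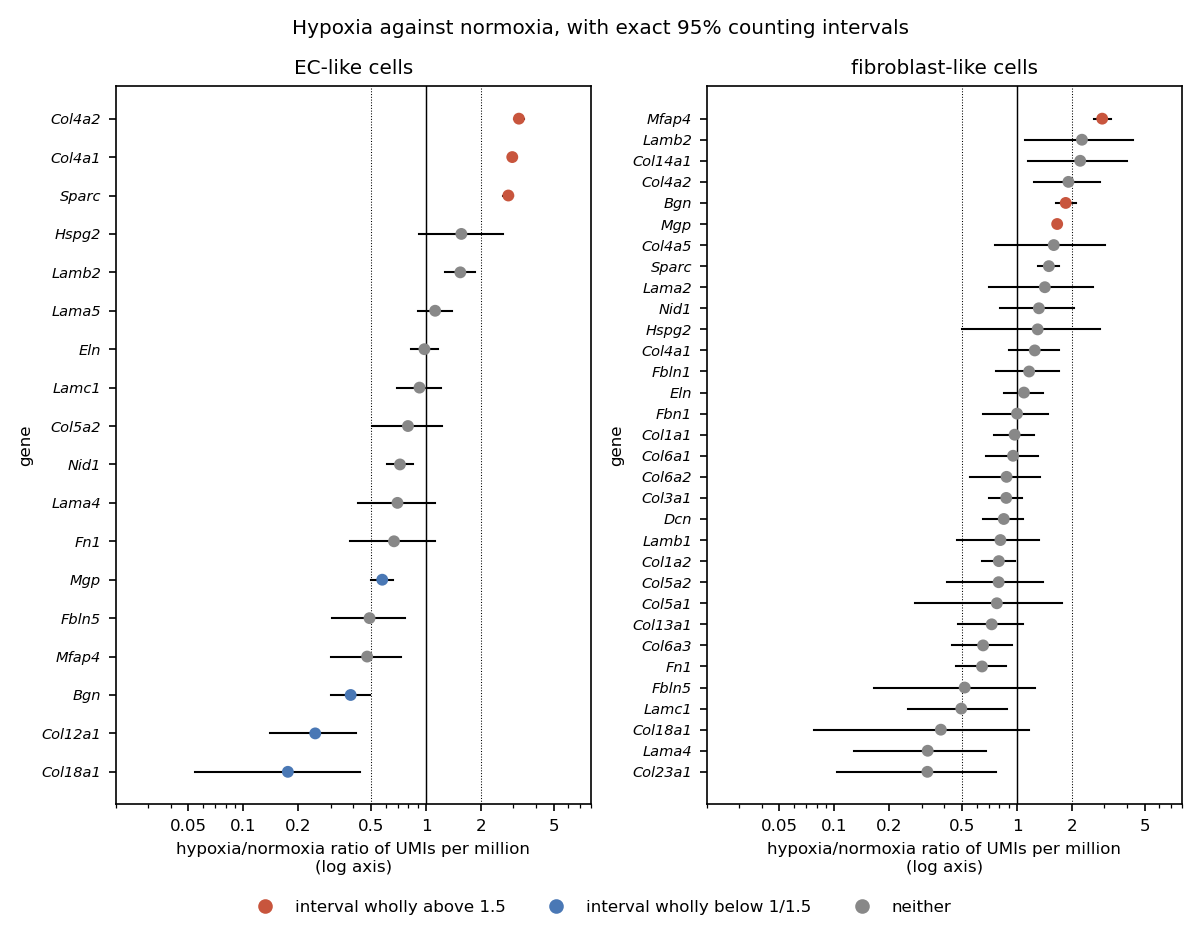
Hypoxia/normoxia ratio of CPM (log axis) with its exact 95% counting interval, for the genes with at least 50 UMIs in EC-like (left) and fibroblast-like cells (right); dotted lines mark 0.5 and 2, and red and blue points have intervals wholly above 1.5 or below 1/1.5. In EC-like cells the intervals of *Col4a1*, *Col4a2* and *Sparc* lie wholly above 1.5; *Col27a1*, with no hypoxia UMI in fibroblast-like cells, is not drawn.

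Fibroblast-like cells gave a less firm comparison, with 34 hypoxia cells and 83570 UMIs. Of 33 of the 53 genes with at least 50 UMIs there, 3 were at least 2-fold higher (*Mfap4*, *Lamb2* and *Col14a1*) and 5 at least 2-fold lower (*Lama4*, *Lamc1*, *Col18a1*, *Col23a1* and *Col27a1*). Of the *Col14a1* UMIs in hypoxia, 85.7% came from 1 cell, and *Lama4* stood at 258 and 83.8 CPM (0.324, 0.129 to 0.680). Over all 3157 genes with that many UMIs, 5.70% were at least 2-fold higher and 18.8% lower. By the interval rule 3 genes were higher (*Mfap4*, *Bgn* and *Mgp*) and 0 lower, against 3.20% and 3.14% of all genes. *Mfap4* stood at 1812 and 5301 CPM (2.93, 2.62 to 3.25), and *Bgn* at 1911 and 3530 (1.85, 1.63 to 2.09). *Mgp* stood at 15744 and 26110 (1.66, 1.58 to 1.74), and *Sparc* at 2188 and 3267 (1.49, 1.31 to 1.70). *Col1a2*, *Col3a1* and *Col1a1* stood at 0.795, 0.873 and 0.970 times their normoxia level. The interstitial sum was 1.30 times higher (1.23 to 1.38).

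The *Gpx3*-led cluster, with 89 and 31 cells, was the only fibroblast-like one to which both libraries gave 10 cells or more. Within it *Mfap4* stood at 1714 and 5620 CPM (3.28, 2.75 to 3.92), and without the top cell of each library, which held 44.0% of *Mfap4* UMIs in hypoxia fibroblast-like cells, the ratio was 1.75 (1.40 to 2.19). *Sparc* stood at 1875 and 3484 (1.86, 1.53 to 2.25), where the 12 EC markers had a summed ratio of 1.63 (1.35 to 1.957) and their part was not tested. *Col1a1* stood at 194 and 509 (2.62, 1.48 to 4.71), on 23 and 31 UMIs. *Col1a2* and *Col3a1* were level there within counting error, with ratios of 1.07 (0.681 to 1.65) and 0.884 (0.554 to 1.38). *Mgp* and *Bgn* were closer to level there, with ratios of 1.10 (1.02 to 1.18) and 1.20 (1.00 to 1.44). *Dcn* cannot be compared, since 67 of 69 hypoxia UMIs came from 1 cell, the lone hypoxia cell of the *Pi16*-led cluster. Scaling by the median ratio of 652 genes in place of total UMIs moved all fibroblast-like log2 ratios by 0.45 and turned the interstitial ratio to 0.957. That scaling moved EC-like log2 ratios by 0.06. The 652 genes had a median ratio of 1.36, against 0.921 over the 3157 fibroblast-like genes with at least 50 UMIs, by which no scaling was run.

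Genes that process, bind or accompany matrix were read in EC-like cells from 4 lists. The counts below stand beside shares over all 8742 genes of 1.99% at least 2-fold higher and 3.72% lower. With 8 to 18 genes measured in each list, a count of 0 or 1 is close to those shares. None of 13 measured collagen-modifying enzymes and chaperones passed 2-fold, and their median ratio was 1.28, against 1.02 over all genes. *Serpinh1*, the collagen chaperone HSP47, stood at 233 and 392 CPM (1.68, 1.53 to 1.85). *P4ha2* and *P4ha1*, prolyl hydroxylase subunits, stood at 1.92 and 1.59 times. Of 8 proteases and inhibitors, *Adam15* was higher, at 151 and 402 (2.66, 2.39 to 2.97), and *Adamts9* lower, at 85.0 and 33.0 (0.388). Of 15 matrix receptors, *Cd44*, a hyaluronan receptor, was more than 2-fold lower, at 36.8 and 6.70, and *Bcam*, which binds laminin alpha 5, stood at 253 and 467 (1.85, 1.68 to 2.02). Of 18 other matrix proteins 2 were at least 2-fold higher and 6 lower. *Sparcl1*, a relative of *Sparc*, stood at 144 and 1366 (9.52, 8.66 to 10.5), and *Fbln2* at 17.0 and 53.1. *Cyr61*, an early-response matricellular gene, stood at 94.5 and 18.7 (0.197, 0.138 to 0.276). In fibroblast-like cells *Cyr61* stood at 814 and 120 and *Thbs1* at 524 and 71.8.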

How the data were processed

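The deposited files hold, per the file headers, UMI counts per gene and cell from Cell Ranger 6.1.2; the labels give the build as mm10. Kept cells had UMIs of 200 to 4000 genes, and mitochondrial genes took no more than 5% of their UMIs. The study gives an upper limit of 4000 in its text and 6000 in its methods, and the latter was an alternative. Counts were scaled to 10000 per cell and logged, and 2000 variable genes without the 53 genes gave 30 components, 15 neighbours and Leiden clusters at resolution 2 (scanpy 1.11.5). No doublet caller was run. One gene of the 53 is not reported here by name. Summed counts per class were divided by the class's total UMIs. Ratios carry exact conditional binomial intervals, levels Poisson and shares Clopper-Pearson intervals (scipy 1.17.1). Only the ratio intervals were checked on simulated counts. Those counts held counting error alone, so the check does not cover variation between cells or animals. Pooled ratios are Mantel-Haenszel ratios over clusters. Levels by class were given for the 30 genes with the most UMIs, and further genes of lower rank were named after their values were seen, as leading examples of a class or cluster. Ratios were named where the interval lay wholly beyond 1.5 or 1/1.5, others being given as context. The genes and lists were chosen with earlier results of these data known, and the rule for EC subtypes was set after the clusters were seen.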

Additional observations from a re-analysis of the deposited data

Results flagged for a closer look

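Over all cells of each class, *Bgn*, *Mgp* and *Mfap4* stood on opposite sides of 1 in EC-like and fibroblast-like cells, with intervals that exclude 1 in both. The differences were not tested. Their hypoxia/normoxia ratios in EC-like cells were 0.387, 0.576 and 0.476, and those in fibroblast-like cells 1.85, 1.66 and 2.93. These 3 genes have 18.4, 66.2 and 64.4 times higher levels in fibroblast-like than EC-like cells of normoxia, and fibroblast-like cells were 13.7% and 4.93% of kept cells. Of 18 fibroblast markers, 11 were lower and 4 higher in hypoxia EC-like cells, while their sum was higher, at 1642 CPM in normoxia and 2211 in hypoxia. Of 12 EC markers, 12 were higher in hypoxia fibroblast-like cells. The part of these markers in the ratios was not tested. Without cells carrying another lineage's markers the *Bgn* and *Mgp* ratios were 0.430 and 0.312 in EC-like cells and 2.25 and 1.40 in fibroblast-like cells, and that of *Mfap4* was 5.41 in fibroblast-like cells. That setting left 86 normoxia and 11 hypoxia fibroblast-like cells. In the *Gpx3*-led cluster of the main setting the *Mfap4* ratio fell from 3.28 to 1.75 without the top cell of each library. There *Bgn* and *Mgp* had ratios of 1.20 and 1.10. Without the top cells these were 1.07 (0.867 to 1.31) and 1.07 (0.987 to 1.15), and both intervals include 1. In EC-like cells the *Bgn* interval pooled within clusters also included 1, and *Mgp* as a mean over cells stood above 1.

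*Mgp* also differed between vessel types. In arterial-like cells it stood at 2824 CPM in normoxia and 423 in hypoxia (ratio 0.150), and in venous-like cells at 85.0 and 506 (ratio 5.95); this difference was not tested. Single cells held 35.2% and 89.5% of the arterial-like UMIs and 27.6% and 55.3% of the venous-like UMIs in normoxia and hypoxia.

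Cells left out for over 5% mitochondrial UMIs carried more of a laminin chain of epithelia. *Lamb3* stood at 24.5 CPM in 835 such normoxia cells and 5.03 in kept cells. Of all *Col4a3* and *Col4a4* UMIs, 67.1% and 69.3% lay in cells left out.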

How the results depend on the processing

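No paired analysis was possible because the labels carry no replicate numbers. The EC-like share of basement membrane UMIs in normoxia was 59.9% at 10% mitochondrial UMIs and 55.3% at 6000 genes; in hypoxia it was 88.1%, 94.0%, 87.6%, 90.4% and 95.02% at those limits, resolution 1, resolution 3 and with the 53 genes among variable genes. The fibroblast-like share of interstitial UMIs was 73.2% in normoxia at 6000 genes, and in hypoxia 67.0%, 83.2% and 69.9% at 10%, 6000 genes and resolution 3. A per-cell marker gate and removal of cells with another lineage's markers lower these shares by construction, to 34.0% and 33.2%, and 56.4% and 56.1% for EC-like cells, and 28.1% and 30.5%, and 19.7% and 25.6% for fibroblast-like cells. The EC-like basement membrane ratio was 2.73 and 2.69 under those 2 settings, 2.41 with median-ratio scaling and 1.91 within shared clusters. The fibroblast-like interstitial ratio was 1.58 at 10%, 1.49 at 6000 genes and 1.67 at resolution 3. Under the gate, with 3 hypoxia cells, it was 2.29, and without other-lineage cells, with 11 hypoxia cells, 1.79. It was 1.55 in the shared cluster, 1.21 as a mean over cells, 1.17 without the top cells, and 1.15 in the shared cluster without them, a setting chosen after seeing the data. It reversed to 0.957 with median-ratio scaling, whose 652 genes had a median ratio of 1.36. Over the 3157 fibroblast-like genes with at least 50 UMIs the median ratio was 0.921, on the other side of 1. Scaling by those genes was not run, and the cause of the reversal was not tested. Genes at least 2-fold lower in EC-like cells numbered 3 at 10%, 2 under the gate, 3 without other-lineage cells and 2 within shared clusters, against 5; those higher numbered 3 or 4 throughout. *Mgp* in EC-like cells reversed to 1.28 as a mean over cells. Cells with a *Col4a1* UMI were 47.3% and 79.0% when thinned to 1000 UMIs and 28.9% and 51.8% at 500.

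Limits are 1 library per condition, 34 fibroblast-like, 12 AT1-like, 1 pericyte-like and no myofibroblast-like cells of hypoxia, and unequal depth and mitochondrial content. Counting intervals leave out variation between animals and between cells.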
